A study of Arabidopsis thaliana with 12 samples.

Results

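The genes described here are 35 nuclear genes of *Arabidopsis thaliana* that encode subunits of the photosystems (PSI and PSII), the light-harvesting proteins of PSI (*LHCA1* to *LHCA6*) and the minor light-harvesting proteins of PSII (*LHCB4* to *LHCB7*). They were chosen by their AGI identifiers from a table of 33078 nuclear loci, at a time when earlier results of these data were known. Of the 35, 34 were found under their own identifier. *PsbQ1* (AT4G21280) was found by its position, because the table lists that locus under AT4G05180, the identifier of *PsbQ2*, and a note of the authors in the table says so. Whole seedlings were either WT of the Col-0 ecotype or *sig2-2*, a T-DNA insertion mutant (SALK_045706) in the nuclear gene for sigma factor 2 (SIG2), of which a single insertion line was used. All seedlings had 4 days of stratification in the dark and were grown on 1% sucrose at 22 °C for 1 day or 7 days in constant red (Rc) light with a fluence rate of 50 μmol m−2 s−1. Each of the 4 conditions had 3 replicates, 12 samples in all, but the authors' tables hold 1 combined value per condition. The unit is FPKM, the number of sequenced fragments per transcript length and library size, which allows levels of different genes to be set side by side within a condition. With combined values there is no replicate error and no test, the depth behind each value is unknown, and every difference below is a description of these libraries.

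PSI and PSII are the pigment-protein complexes of the thylakoid membrane that drive photosynthetic electron transport. Their reaction center proteins are encoded in the plastid, whereas many peripheral subunits and all light-harvesting proteins are encoded in the nucleus, made in the cytosol and imported. A working photosystem thus needs products of both genomes. SIG2 is a nucleus-encoded sigma factor that directs the plastid-encoded RNA polymerase to certain plastid promoters, and the state of the plastid is known to influence the transcription of nuclear photosynthesis genes, which is called retrograde signaling. Nuclear genes for the photosystems are also induced strongly by light during seedling greening.

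The mutant was checked first. *SIG2* (AT1G08540) was at 66.5 FPKM in WT against 1.31 FPKM in the mutant at 1 day, and at 87.7 FPKM (WT) and 1.49 FPKM (*sig2-2*) on day 7. The locus with the highest value, AT2G01021, held between 5.45% and 32.6% of the summed nuclear FPKM of a condition. The 4 reference genes *UBC21*, *PP2AA3*, *ACT2* and *UBQ10* had median log2 changes in *sig2-2* of 0.05 at 1 day and 0.14 at 7 days, with *ACT2* at 0.98 at 7 days. A change is given throughout as the log2 of one FPKM plus 1 over the other FPKM plus 1, which makes the change of weakly expressed genes look smaller. A gene is called raised or lowered where this value reached 2-fold, a log2 of 1, and the background of each comparison is the share of nuclear loci at 1 FPKM or more in either condition that did so.

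The 250 bases ahead of the annotated gene start were read from the TAIR10.1 genome of RefSeq for all 35 genes and searched on both strands for the G-box CACGTG, the I-box GATAAG and the letters CCAATC, which are elements known from light-responsive plant promoters. The G-box, which is its own reverse complement, was present in 9 of the 35 windows and in 6.49% of 27443 windows of all genes. The I-box was present in 8 of the 35 and in 12.3% of all windows, and CCAATC in 6 of the 35 and in 10.2% of all windows. At least 1 of the 3 motifs was found for 15 of the 35 genes and in 26.1% of all windows, so 20 of the genes had none. The G-box and the I-box occurred together for *PsaH2*, *LHCB6* and *PsbQ2*, 3 of the 35, and in 0.922% of all windows. A match is only a run of letters, and no binding was measured. Of the windows shown, *PsaK* was highest in its log2 change at 1 day, *PsbQ2* was highest in its log2 change between ages in WT, and *LHCB4.1* and *LHCB4.3* are copies whose changes at 7 days were far apart. Capitals mark the motifs, as read on the strand of the gene, 5′ to 3′. No other annotated gene overlaps these windows, which lie at chr1:10721933-10722182 on the plus strand, chr4:2673244-2673493 on the minus strand, and chr5:208616-208865 and chr2:16745378-16745627 on the plus strand.
*PsaK*: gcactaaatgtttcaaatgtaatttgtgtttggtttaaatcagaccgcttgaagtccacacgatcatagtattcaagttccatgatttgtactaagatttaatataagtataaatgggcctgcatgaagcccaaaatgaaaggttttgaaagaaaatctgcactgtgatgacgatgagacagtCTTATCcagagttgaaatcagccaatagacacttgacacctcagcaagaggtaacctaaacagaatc
*PsbQ2*: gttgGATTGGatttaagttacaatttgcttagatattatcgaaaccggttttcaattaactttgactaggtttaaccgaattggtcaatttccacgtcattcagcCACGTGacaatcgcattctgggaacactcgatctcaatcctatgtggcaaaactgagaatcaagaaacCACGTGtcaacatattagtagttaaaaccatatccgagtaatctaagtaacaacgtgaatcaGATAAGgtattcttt
*LHCB4.1*: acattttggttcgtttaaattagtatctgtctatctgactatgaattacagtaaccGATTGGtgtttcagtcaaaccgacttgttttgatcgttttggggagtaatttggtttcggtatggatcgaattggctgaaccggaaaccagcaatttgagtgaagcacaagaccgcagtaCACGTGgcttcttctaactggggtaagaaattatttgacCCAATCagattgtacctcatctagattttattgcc
*LHCB4.3*: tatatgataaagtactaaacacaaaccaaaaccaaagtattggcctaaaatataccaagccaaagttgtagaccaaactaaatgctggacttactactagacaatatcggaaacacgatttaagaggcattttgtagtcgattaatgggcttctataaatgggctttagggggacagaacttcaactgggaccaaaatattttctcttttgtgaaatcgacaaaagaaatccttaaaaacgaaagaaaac
The *PsaK* window has an I-box in reverse, 67 bases before the start. The *PsbQ2* window has G-boxes at 145 and 77 bases, an I-box at 15 bases and CCAATC in reverse at 246 bases before the start. *LHCB4.1* has a G-box at 74 bases between matches to CCAATC at 194 and 35 bases, while the *LHCB4.3* window holds none of the 3 motifs.

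At 1 day, transcripts of nearly all of these genes were more abundant in *sig2-2* than in WT. Of the 35 genes, 34 were higher in the mutant, 9 were raised by 2-fold or more and 0 were lowered. Of the 18862 loci of the background, 47.7% were higher, 2.92% were raised and 1.15% were lowered. The median log2 change of the 35 genes was 0.75, with a range from −0.13 to 1.68, and the median of all loci was −0.01. The 9 raised genes were *PsaK*, *PsaL*, *PsaE2* and *PsaH1* of the PSI core, *LHCA3* of the PSI antenna, *LHCB4.1* of the minor antenna, and *PsbQ2*, *PsbO1* and *PsbR* of the lumen side of PSII. *PsaH1* and *LHCB4.1*, both at 1.01, lay just past the threshold, and *LHCA2* at 0.98 and *PsaO* at 0.96 lay just below it. As plain ratios *LHCA2* was 2.03-fold and *PsaO* 2.01-fold higher, and only the pseudocount kept them short of 2-fold. The loci of 8 of the 35 genes in the table also include another protein-coding gene, among them those of *PsaE2*, *PsaH1* and *PsbR*, and the part of those neighbours was not tested. Of the other 27 genes, 6 were raised.

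**Figure D1:**
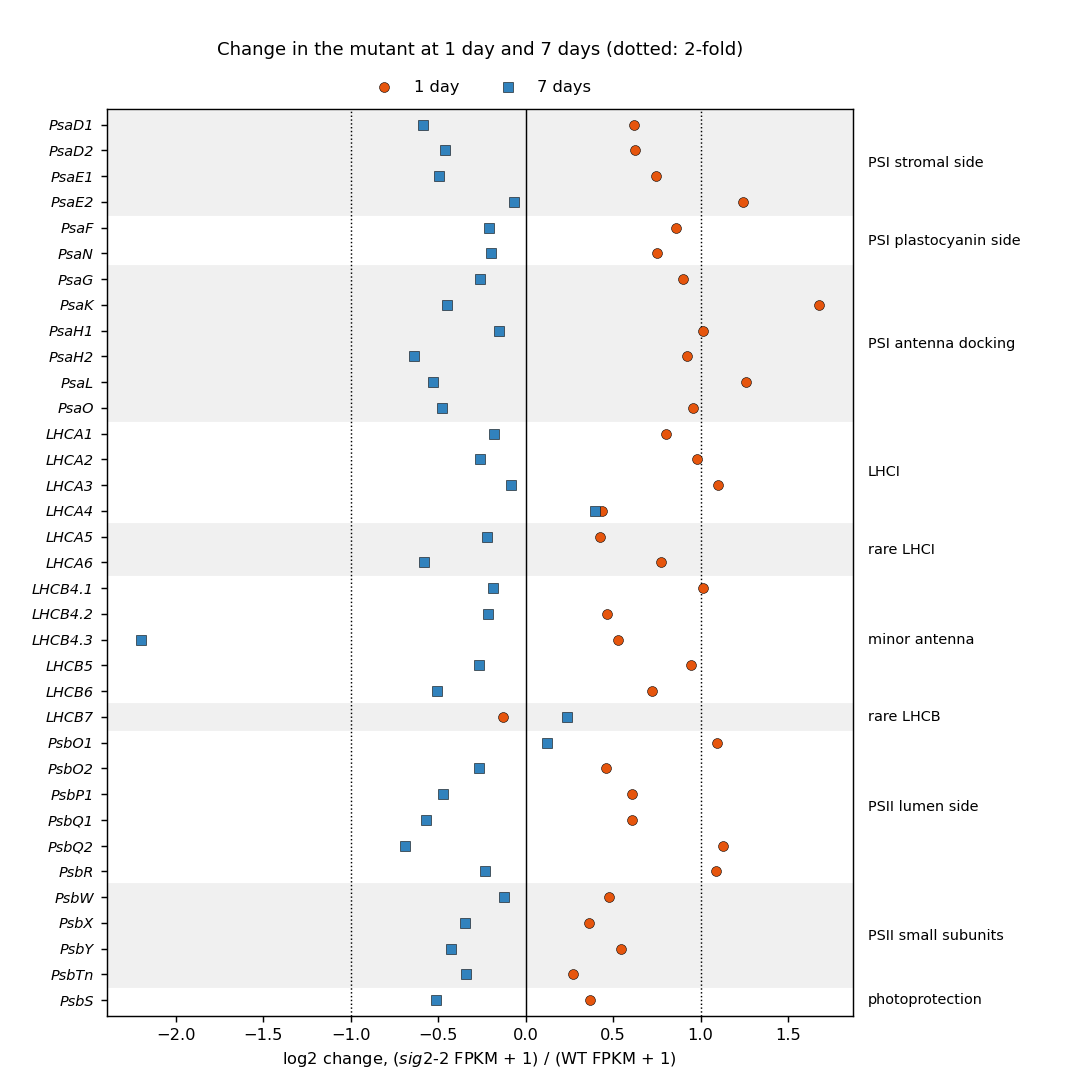
The log2 change of each of the 35 genes in *sig2-2* against WT is plotted on the horizontal axis, as circles for 1 day and squares for 7 days, with genes grouped by role. At 1 day 34 of 35 circles lie to the right of 0, at 7 days 32 of 35 squares lie to the left, and the square of *LHCB4.3* stands at −2.20.

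Levels at this age were low. The 35 genes ranged from 2.01 to 182 FPKM in WT, with a median of 34.5 FPKM, and from 3.36 to 236 FPKM in *sig2-2*, with a median of 56.5 FPKM. Summed, they stood at 1724 FPKM in WT against 2772 FPKM in the mutant, which was 0.120% and 0.216% of the nuclear total. The most abundant of the group in WT were *PsbS* at 182 FPKM and *PsbX* at 159 FPKM, followed by *PsbP1* at 112 FPKM and *PsbQ1* at 108 FPKM. In a bulk sample, more cells of a type and more RNA per cell cannot be told apart.

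Other transcripts also differed between the 1-day samples. All 8 seed reserve genes listed (*SESA1* to *SESA4*, *CRA1*, *CRB*, *CRC* and *OLEO1*, for storage proteins and an oil-body protein) were raised in *sig2-2*, the median being 2.00 on the log2 scale. Their summed level was 22.8 FPKM in WT against 167 FPKM in the mutant, and none was listed at 0. Of 6 genes of root hairs, root epidermis and endodermis, 4 were higher and 2 were lower, with a median of 0.18. *EXPA7* and *COBL9* of root hairs were raised, while *GL2* at −0.11 and *WER* at −0.06 were lower. The summed level of the 6 was 86.3 FPKM in WT and 122 FPKM in the mutant. Of 5 genes for Rubisco and its activase, which mark green tissue, 1 was raised (*RCA*, at 1.45), 4 were higher, and the median was 0.66. The summed level of the Rubisco list was 3346 FPKM in WT against 4836 FPKM in the mutant. The part of these differences in the change of the photosystem genes was not tested.

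Within PSI, the subunits that face the antenna had the highest median of the groups at 1 day, and no test of that difference was possible. *PsaE2* of the stromal side, at 1.24, was above all of them except *PsaK* and *PsaL*. The 6 genes of the antenna-facing group had a median log2 change of 0.99 and 3 of them were raised, beside 2.92% of the background loci. *PsaK* (AT1G30380, chromosome 1 from 10722197 to 10723247) encodes a subunit at the edge of the core beside the LHCI belt. It was at 11.0 FPKM in WT against 37.5 FPKM in the mutant at 1 day, and its log2 change of 1.68 was the highest of the 35. *PsaL* (AT4G12800, chromosome 4 from 7521322 to 7522670), at the side of PSI that receives LHCII during state transitions, was at 23.0 and 56.5 FPKM, a log2 change of 1.26. *PsaH1* (AT3G16140) and *PsaH2* (AT1G52230) encode the neighbour of PsaL at that site. They were at 14.9 and 29.0 FPKM in WT and at 31.1 and 55.9 FPKM in *sig2-2*, with log2 changes of 1.01 and 0.92. *PsaO* (AT1G08380) of the same side was at 14.2 and 28.5 FPKM (0.96), and *PsaG* (AT1G55670), which anchors LHCI at the other end of the belt from PsaK, was at 41.7 and 78.5 FPKM (0.90). The loci of *PsaG* and *PsaH1* also include another protein-coding gene. At 7 days all 6 were lower in the mutant, between −0.64 for *PsaH2* and −0.15 for *PsaH1*. Of them 0 reached 2-fold, which is near the background share of 3.87%. *PsaK* was then at 2799 FPKM in WT against 2049.5 FPKM in the mutant (−0.45), and *PsaL* at 2857 and 1978 FPKM (−0.53).

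The stromal subunits PsaD and PsaE form the docking site of ferredoxin. *PsaE2* (AT2G20260, chromosome 2 from 8736734 to 8739677) had 16.5 FPKM in WT against 40.3 FPKM in the mutant at 1 day, a log2 change of 1.24, while its copy *PsaE1* (AT4G28750) was at 37.9 and 64.3 FPKM (0.75). *PsaD1* (AT4G02770), the most abundant of the 4, was at 95.8 and 148 FPKM (0.62), and *PsaD2* (AT1G03130) at 10.2 and 16.3 FPKM (0.63). In each case the mutant value was the higher one. At 7 days *PsaD1* was at 2122 FPKM in WT against 1412 FPKM in the mutant (−0.59), *PsaD2* at 1105 against 803 FPKM (−0.46) and *PsaE1* at 1719.7 against 1219 FPKM (−0.50). *PsaE2* was nearly level between the genotypes, at 749.9 and 717 FPKM (−0.07). On the opposite side, *PsaF* (AT1G31330) and *PsaN* (AT5G64040) encode subunits that help plastocyanin bind. *PsaF* was at 77.6 FPKM (WT) and 142 FPKM (*sig2-2*) on day 1 and at 3713 FPKM (WT) and 3216 FPKM (*sig2-2*) on day 7 (0.86 and −0.21), and *PsaN* had changes of 0.75 and −0.20. Over the 12 PSI core genes together, the median was 0.91 with 4 raised at 1 day, beside 2.92% of the background loci. At 7 days the median was −0.45 with 0 lowered by 2-fold, which is near the background share of 3.87%.

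The PSI antenna is a belt of 4 proteins, LHCA1 paired with LHCA4 and LHCA2 with LHCA3. At 1 day *LHCA3* (AT1G61520, chromosome 1 from 22699715 to 22701383) was raised, with 38.9 FPKM in WT and 84.5 FPKM in the mutant (1.10). *LHCA2* (AT3G61470) had a change of 0.98, *LHCA1* (AT3G54890) of 0.80 and *LHCA4* (AT3G47470) of 0.44. At 7 days *LHCA4* differed in direction from its partners. Its level was 2730.2 FPKM in WT against 3589 FPKM in the mutant, a log2 change of 0.39 and the highest value of the 35 at that age, whereas *LHCA1* was at 2617 and 2313 FPKM (−0.18), *LHCA2* at 2241 and 1869 FPKM (−0.26) and *LHCA3* at 3841 and 3633 FPKM (−0.08). The locus that holds *LHCA4* in the table runs over 8269 bases and includes another protein-coding gene, *ATSMC2*, so its FPKM may not be that of *LHCA4* alone, and the part of the neighbour was not tested. LHCA5 and LHCA6 are scarce proteins that link PSI to the chloroplast NDH complex. *LHCA5* (AT1G45474) was at 33.5 FPKM (WT) and 45.3 FPKM (*sig2-2*) on day 1 but at 218 FPKM (WT) and 187 FPKM (*sig2-2*) on day 7. The locus of *LHCA5* runs over 3656 bases and also includes another protein-coding gene. *LHCA6* (AT1G19150) was at 5.75 and 10.5 FPKM, then at 147 and 97.7 FPKM, with changes of 0.77 and −0.58.

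The minor antenna proteins LHCB4, LHCB5 and LHCB6 sit between the PSII core and the LHCII trimers. *LHCB4.1* (AT5G01530, chromosome 5 from 208937 to 210445) was raised at 1 day, from 58.6 to 119 FPKM (1.01). *LHCB5* (AT4G10340) was at 47.7 FPKM in WT against 92.7 FPKM in the mutant at 1 day (0.95), and at 3510.5 FPKM (WT) and 2915 FPKM (*sig2-2*) on day 7 (−0.27). *LHCB6* (AT1G15820) had changes of 0.72 and −0.51, and *LHCB4.2* (AT3G08940) of 0.46 and −0.22. The loci of *LHCB6* and *LHCB4.2* also include another protein-coding gene. The rare *LHCB7* (AT1G76570) was the only gene of the 35 that was lower in the mutant at 1 day. Its levels of 3.76 and 3.36 FPKM at 1 day and of 13.3 and 15.9 FPKM at 7 days were the lowest or nearly the lowest of the group, and its changes were −0.13 and 0.24.

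On the lumen side of PSII, PsbO, PsbP and PsbQ shield the manganese cluster that oxidizes water, and PsbR helps to attach them. *PsbO1* (AT5G66570, chromosome 5 from 26568653 to 26570278) was raised at 1 day, from 45.1 to 97.6 FPKM (1.10), and was slightly higher in the mutant at 7 days too, at 3529 and 3845 FPKM (0.12). Its copy *PsbO2* (AT3G50820) was at 34.5 and 47.8 FPKM on day 1 (0.46) and at 928 and 773 FPKM on day 7 (−0.26). *PsbR* (AT1G79040), the most abundant of the 35 at 7 days, was raised at 1 day from 58.8 to 126 FPKM (1.09), and was at 5064 FPKM (WT) and 4319 FPKM (*sig2-2*) on day 7 (−0.23). *PsbQ2* (AT4G05180, chromosome 4 from 2671822 to 2673243), whose promoter is printed above, was raised from 2.01 to 5.59 FPKM (1.13), the lowest starting level of the group in WT. *PsbP1* (AT1G06680) was at 112 FPKM (WT) and 171 FPKM (*sig2-2*) on day 1 and at 4057 FPKM (WT) and 2922 FPKM (*sig2-2*) on day 7, with changes of 0.61 and −0.47. *PsbQ1* was at 108 and 166 FPKM on day 1 (0.61), and at 1779.6 and 1202 FPKM on day 7 (−0.57). The group of 6 had a median of 0.85 at 1 day, with 3 raised beside 2.92% of the background loci, and of −0.37 at 7 days.

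The remaining PSII genes had smaller differences at 1 day. The small subunits *PsbW* (AT2G30570), *PsbX* (AT2G06520), *PsbY* (AT1G67740) and *PsbTn* (AT3G21055), of which PsbW is known to hold antenna and core together, were between 0.27 and 0.55, with a median of 0.42. At 7 days they were between −0.42 and −0.13. *PsbS* (AT1G44575), for the sensor of lumen pH that switches on heat dissipation of absorbed light, was at 182 FPKM (WT) and 236 FPKM (*sig2-2*) on day 1 (0.37) and at 1843 FPKM (WT) and 1290.0 FPKM (*sig2-2*) on day 7 (−0.51). The 11 PSII genes together had a median of 0.55 at 1 day beside 0.91 for the 12 PSI genes, and no test of that difference was possible.

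At 7 days the direction was the opposite for most of the genes, and the median difference was smaller. Of the 35, 32 were lower in *sig2-2* and 3 were higher (*LHCA4*, *LHCB7* and *PsbO1*), where 49.9% of the background loci were lower and 50.1% were higher. The median log2 change was −0.27, and the median of all 20057 loci of the background was 0.00. Without the 8 genes whose locus includes another protein-coding gene, which were left out after the data were seen, the median of the other 27 was −0.42. By the 2-fold measure, 1 gene (*LHCB4.3*) was lowered and 0 were raised, where 3.87% of the background loci were lowered and 4.46% were raised. A single call among 35 genes is near the background share. Apart from *LHCB4.3*, the lowest changes were −0.69 for *PsbQ2*, with 1308 FPKM in WT and 812 FPKM in the mutant, and −0.64 for *PsaH2*, from 1918 to 1233 FPKM. Summed, the 35 genes stood at 75081 FPKM in WT against 62028 FPKM in the mutant, or 7.48% and 5.82% of the nuclear total. The Rubisco list was lower as well, with 5 of 5 genes below WT, 1 of them lowered, a median of −0.45, and summed levels of 47052 and 32726 FPKM. Seed reserve genes were at 1.22 FPKM or less, 6 of the 8 at 0 in WT, and of the 6 root genes 2 were lowered, with summed levels of 43.5 and 29.7 FPKM. The part of these lists in the result was not tested.

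**Figure D2:**
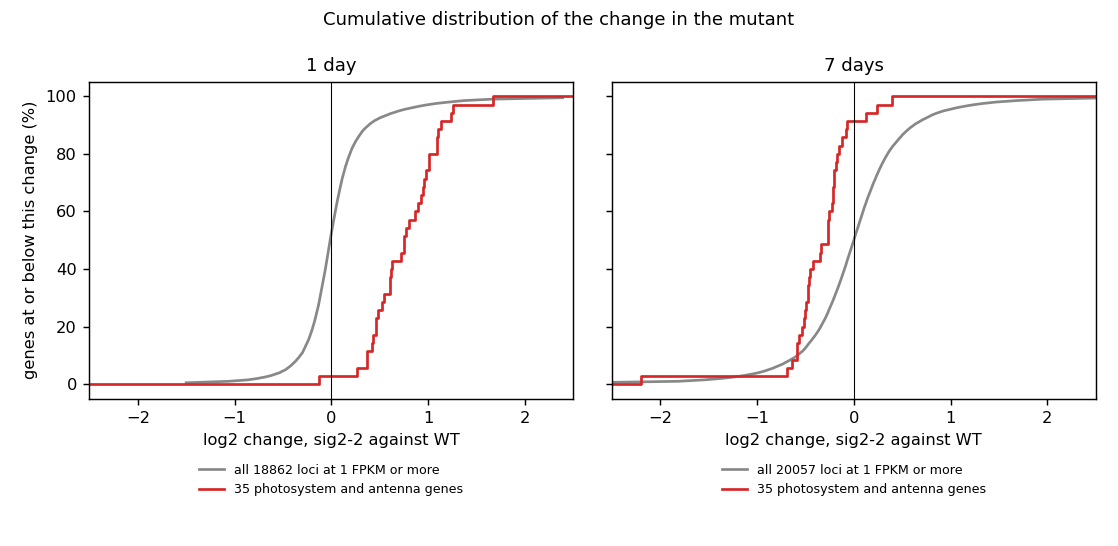
The share of genes at or below each log2 change in *sig2-2* against WT is drawn for the 35 genes as a red step line and for all nuclear loci at 1 FPKM or more as a grey line (0.5% to 99.5%), at 1 day on the left and at 7 days on the right. The red line lies to the right of the grey line around its median of 0.75 at 1 day, and to the left of it around its median of −0.27 at 7 days.

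Higher at 1 day and lower at 7 days in the mutant was the pattern of 32 of the 35 genes. Among 16872 loci at 1 FPKM or more in all 4 conditions, 24.0% had this pattern. *LHCA4* and *PsbO1* were higher at both ages, 0 genes were lower at both, and *LHCB7* was lower at 1 day and higher at 7 days. The genotype differences at the 2 ages come from separate conditions, but neither has a replicate error, and the difference between them was not tested.

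*LHCB4.3* (AT2G40100, chromosome 2 from 16745653 to 16747400) stood apart from the other 34 genes. It was at 4.45 FPKM in WT against 6.85 FPKM in the mutant at 1 day, a log2 change of 0.53 that was close to that of its copy *LHCB4.2*. By day 7 its level was 25.8 FPKM in WT against 4.83 FPKM in the mutant, a log2 change of −2.20, or 5.34-fold lower as the plain ratio of the FPKM values. The mutant level at 7 days was thus near the level of both genotypes at 1 day. *LHCB4.1* was at 2643 and 2319 FPKM and *LHCB4.2* at 1564 and 1346 FPKM at the same age, with changes of −0.19 and −0.22. *LHCB4.3* was a small part of the family throughout, at 4.98% (WT) and 4.21% (*sig2-2*) of the *LHCB4* FPKM on day 1 and at 0.609% and 0.132% on day 7. Its coding sequence was 71.7% identical to that of *LHCB4.1* and 72.5% to that of *LHCB4.2*, which were 81.9% identical to each other.

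Several subunits are encoded by near copies, and the balance between copies shifted with age more than with genotype in some families but not in others. For PsbQ, *PsbQ1* held 98.2% (WT) and 96.7% (*sig2-2*) of the family's FPKM on day 1. At 7 days it held 57.6% and 59.7%, as *PsbQ2* was by then at 1308 and 812 FPKM. For PsaD, *PsaD1* held 90.4% and 90.0% at 1 day and 65.8% and 63.8% at 7 days. For PsbO, the share of *PsbO1* over *PsbO2* was 56.6% in WT against 67.1% in the mutant on day 1, and 79.2% and 83.3% at 7 days, so it was higher in the mutant at both ages. For PsaE the reverse held for the first copy, as *PsaE1* had 69.7% in WT against 61.4% in the mutant on day 1 and 69.6% against 63.0% on day 7, an ordering by genotype and not by age. For PsaH, *PsaH1* held 34.0% and 35.8% at 1 day and 40.5% and 48.8% at 7 days. The coding sequences of the copy pairs were between 79.5% (PsaE) and 88.0% (PsaD) identical. Exonic words of 55 bases were found once in the TAIR10.1 genome for 100% of the words of 34 of the genes and for 90.9% of those of *LHCA2*. These words were matched exactly and did not span splice junctions. How the authors' counting assigned any other reads that fit both copies is not given in the sources used here. The split between copies is uncertain to that extent. The loci of *PsaE2*, *PsaH1* and *LHCB4.2* are among those that include another gene.

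**Figure D3:**
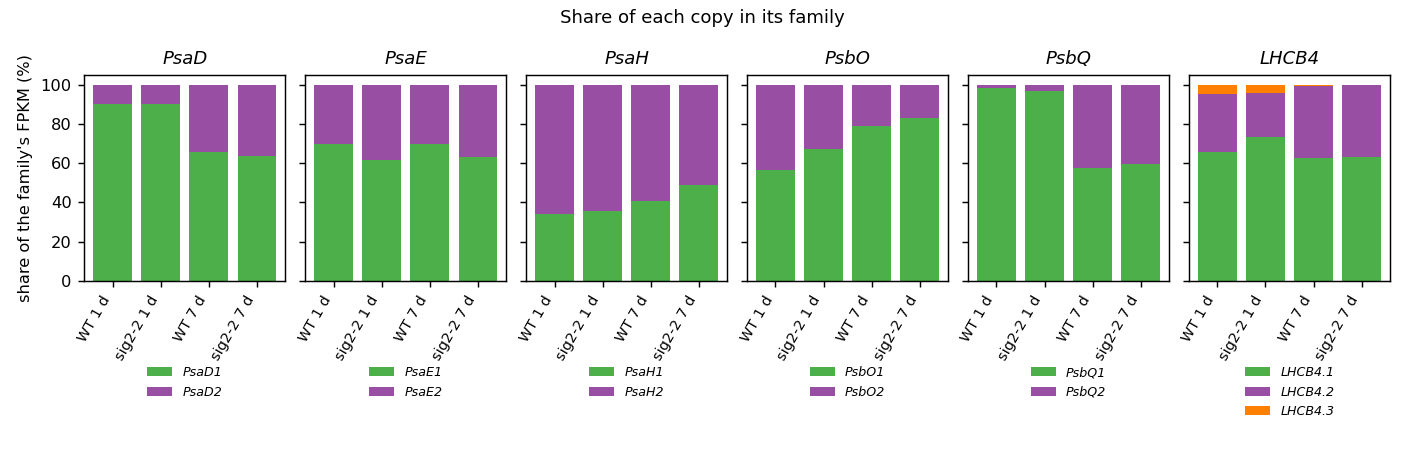
Stacked bars show the share of each gene copy, in percent of the summed FPKM of its family, in WT and *sig2-2* at 1 day and 7 days for 6 families, with no error bars because each condition has 1 combined value. The share of *PsbQ1* runs from 98.2% in WT at 1 day to 57.6% in WT at 7 days, and that of *PsaE1* is 69.7% and 69.6% in WT and 61.4% and 63.0% in *sig2-2*.

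Summed over copies, the families followed the group as a whole at 1 day, with log2 changes of the family sum in *sig2-2* of 0.62 for PsaD, 0.63 for PsbQ, 0.86 for LHCB4 and PsbO, 0.93 for PsaE and 0.97 for PsaH. At 7 days the sums were between −0.62 for PsbQ and 0.05 for PsbO. The PsbO sum, 4457 FPKM in WT against 4618 FPKM in the mutant, was the only one of the 6 that was not lower in the mutant.

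Between 1 day and 7 days all 35 genes were raised in WT, by a median of 5.56 on the log2 scale, from 1.59 for *LHCB7* to 8.76 for *PsbQ2*. In *sig2-2* 34 of 35 were raised, with a median of 4.49 and a range from −0.43 to 6.95. The exception was *LHCB4.3*, at −0.43 in the mutant beside 2.30 in WT. Of the background loci, 19.5% were raised with age in WT and 19.9% in *sig2-2*. These comparisons use the same 4 values as those between genotypes and add no independent sample. In WT the highest ratios after *PsbQ2* belonged to *PsaO* (7.90) and *PsaK* (7.86), which started at 14.2 and 11.0 FPKM and had reached 3624 and 2799 FPKM by day 7. The 12 PSI core genes had a median of 6.35 in WT and 5.14 in *sig2-2*, and the 11 PSII genes 4.71 and 3.99. *PsbS* and *PsbX*, which had the highest levels of the 35 in WT at 1 day, had changes of 3.33 and 3.47 with age and were ranked 19 and 20 of the 35 in WT at 7 days. The order of the genes thus differed between ages, as *PsbR* moved from rank 11 to rank 1 and *LHCA3* from rank 16 to rank 3.

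**Figure D4:**
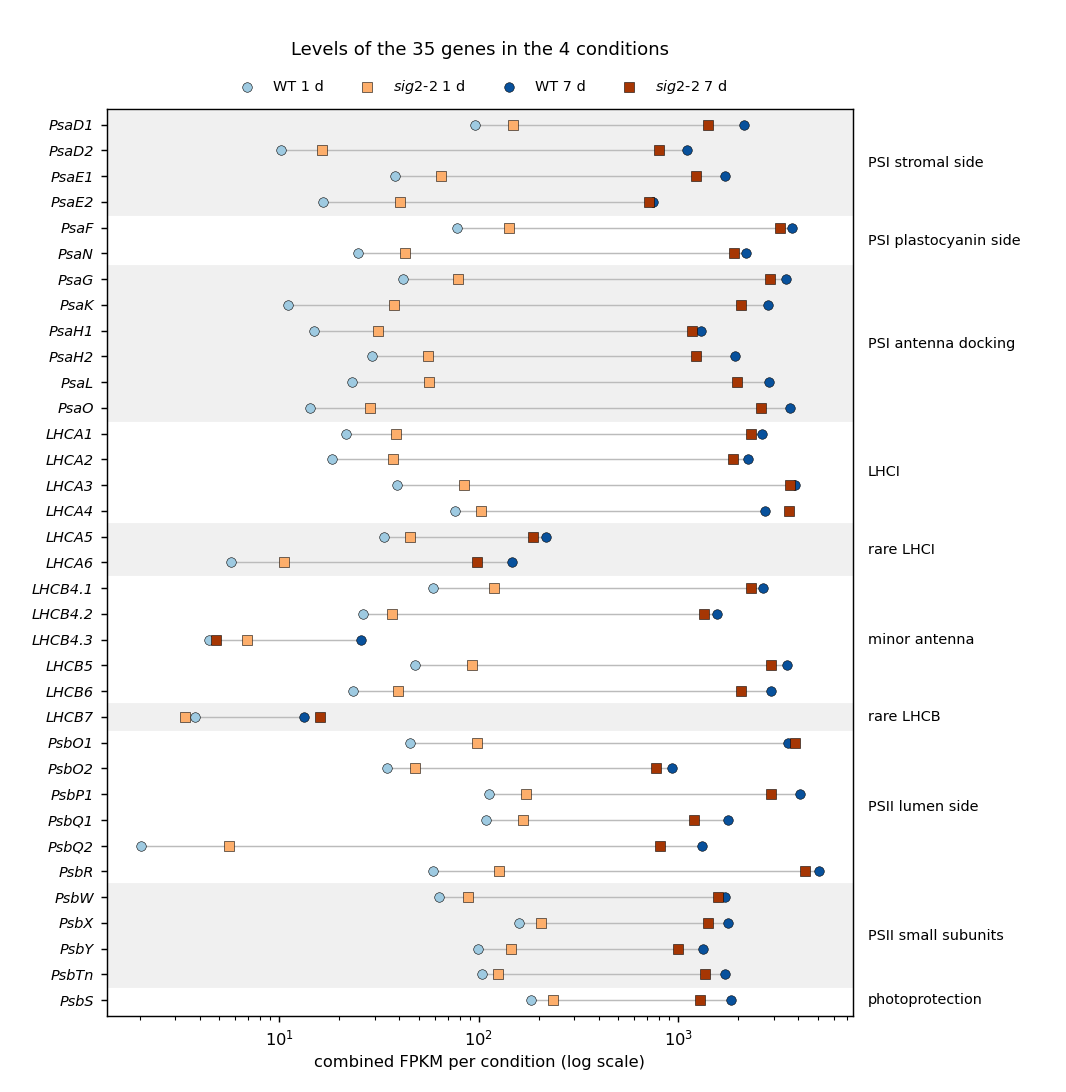
The combined FPKM of each of the 35 genes is plotted on a log axis, with circles for WT and squares for *sig2-2*, pale for 1 day and dark for 7 days. In 34 of 35 rows both 7-day symbols lie to the right of both 1-day symbols, and in the row of *LHCB4.3* the dark square at 4.83 FPKM lies among the 1-day symbols.

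A list of 25 other genes of the pathway, most of them for proteins that assemble, regulate or insert the photosystems, was set beside the subunits. At 1 day 23 of the 25 were higher in *sig2-2*, where 47.7% of the background loci were higher. By the 2-fold measure 0 were raised, which is near the background share of 2.92%. The median was 0.16 with a highest value of 0.44 for *CPSRP54*, which carries light-harvesting proteins through the stroma. *HCF136*, which is needed for an early step of PSII assembly, was at 37.1 and 49.4 FPKM (0.40), and *STN7*, the kinase that phosphorylates LHCII for state transitions, was at 7.17 and 9.79 FPKM (0.40). At 7 days 17 of the 25 were lower, where 49.9% of the background loci were lower, and the median was −0.15. By the 2-fold measure 0 were lowered, which is near the background share of 3.87%. *PSB28*, of a PSII repair and assembly intermediate, was at 263 and 159 FPKM (−0.72). The lowest change was that of the weakly expressed *PSBP2*, at 2.94 FPKM in WT and 1.26 FPKM in the mutant (−0.80). As a plain ratio it was 2.33-fold lower, and only the pseudocount kept it short of 2-fold. With age, 12 of the 25 were raised in WT and 8 in *sig2-2*, beside 19.5% and 19.9% of the background loci, with medians of 0.95 and 0.70.

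The plastid-encoded partners of these subunits were read from the tables of single conditions. These libraries were made from mRNA with a kit that selects poly(A) tails, and plastid mRNAs mostly lack long tails, so these values cannot be taken as levels of the plastid transcripts. As listed, *psaA* for a PSI reaction center protein was at 8.14 FPKM in WT against 4.59 FPKM in the mutant at 1 day, and at 6.14 FPKM (WT) and 63.8 FPKM (*sig2-2*) on day 7. The 10 plastid genes examined, of which *psbC* and *psbD* share 1 locus, were all lower in *sig2-2* at 1 day, with log2 changes from −1.40 for *psbA* to −0.11 for *psaC*. At 7 days all were higher in the mutant, from 0.58 for *psaJ* to 4.14 for *psaC*.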

How the data were processed

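RNA-seq libraries of whole seedlings were made with a TruSeq mRNA kit, 3 for each of 4 conditions. The authors ran Cufflinks and Cuffdiff and deposited 1 combined FPKM value per locus and condition. Versions, aligner, annotation and genome build are not given in the sources used here. Of the loci, 32060 overlapped their identifier in TAIR10.1 and 12583 had the same start. Columns with the authors' ratios, statistics, p-values and q-values were not used, nor were 4 note lines without values. Nuclear values were identical in the combined and the single-condition tables.

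Samples were grouped by their titles. Genes were placed by identifier and position. Log2 changes used a pseudocount of 1 FPKM, and calls a 2-fold threshold, over loci at 1 FPKM or more in either condition. No test was run, because combined values hold no replicates, and depth is unknown. The fold computation was checked on test values with known folds. All 35 genes, *SIG2* and the fixed lists could be named. The genes and lists were chosen with earlier results of these data known. Alternatives were another pseudocount, centring, rescaling, a filter on low values, a 1.5-fold threshold and the single-condition tables, which hold identical nuclear values. Chosen after seeing the data were leaving out shared loci and leaving out *LHCA5*, *LHCA6* and *LHCB7*. Promoter windows and coding identities came from TAIR10.1 (RefSeq), and protein sequences were not used here. Python 3.11.15, pandas 2.3.3, numpy 2.4.6, matplotlib 3.10.9 and Biopython 1.88 were used.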

Additional observations from a re-analysis of the deposited data

Results flagged for a closer look

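The median log2 change of the 35 genes in *sig2-2* against WT was 0.75 at 1 day and −0.27 at 7 days, which stood out because the direction differed between the ages. With 1 combined value per condition, this difference was not tested.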

How the results depend on the processing

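No result reversed its direction. A pseudocount of 0.1, centring and rescaling without the highest locus left the counts of raised and lowered genes within 1.5 times of their values. The medians of the 4 comparisons stayed within the same bound, and 11 genes were raised on day 1 under the pseudocount of 0.1. The largest shift of all loci by a scaling was 0.03 on the log2 scale. The tables of single conditions hold identical nuclear values, so their results could not differ and are no separate check. With a 1.5-fold threshold 24 genes in place of 9 were raised on day 1, and 4 in place of 1 were lowered on day 7. On day 1, 93.5% of the background loci were at or below a log2 change of 0.57, just under that threshold. On day 7, 10% of the background loci were at or below −0.58, so the 4 lowered genes are near the background share. Among the 32 genes at a mean of 100 FPKM or more, 0 were lowered at 7 days, and the medians with age were 5.92 in WT and 5.02 in *sig2-2*. These medians were the same, 5.92 and 5.02, without *LHCA5*, *LHCA6* and *LHCB7*. Without the 8 genes whose locus includes another protein-coding gene, the median of the other 27 was −0.42 at 7 days, and 4.27 with age in *sig2-2*. Without the highest locus, the 35 genes held 0.178% (WT) and 0.290% (*sig2-2*) of the nuclear FPKM on day 1. On day 7 they held 7.91% (WT) and 6.57% (*sig2-2*). Leaving out single replicates was not run, since replicate values were not analysed here. No paired analysis was possible because the columns hold 1 combined value per condition and carry no replicate number.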
